A study of Mus musculus with 12 samples.

Results

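Sorted CD8+ cells that carried the surface glycolipid asialo-GM1 (asGM1) were compared with sorted CD8+ cells that lacked it, all from Panc02 tumours made to express Flt3L. Panc02 is an established mouse pancreatic adenocarcinoma line. The comparison used the 6 libraries of bulk RNA sequencing labelled with this tumour, 3 asGM1-negative and 3 asGM1-positive, of 12 in the series, and they were chosen by their labels alone. All came from wild-type C57BL/6J mice, and the cells were sorted as DAPI-, CD45.2+ and CD8+ and then as asGM1- or asGM1+. Expression of Flt3L was shared by both groups. The other 6 libraries were the same 2 gates from parental Panc02 tumours without Flt3L, also in 3 replicates each, and entered the same model. The question was how asGM1-bearing CD8+ T cells differ from asGM1-lacking ones within these tumours. No T cell receptor marker was among the labelled sort markers, and the labels do not say how Flt3L was expressed, whether the line was 1 clone, how old the mice were or whether cells of several mice were pooled.

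Asialo-GM1 is a neutral glycosphingolipid of the outer cell membrane. It is built from ceramide by the stepwise addition of sugars, the last steps being made by B4galnt1 and B3galt4, and the sialyltransferases that act on the same precursors lead away from it towards gangliosides. In mice it is best known as a surface marker of natural killer (NK) cells, and it also appears on activated CD8+ T cells. Flt3L is the growth factor that drives the formation of dendritic cells, both the conventional cells that present antigen to T cells and the plasmacytoid cells that make type I interferon, and some mouse dendritic cells carry CD8 alpha on their surface.

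Each library held a total of 98663008 to 102896605 estimated counts, but the small values were spaced at about 2.71 counts, so the number of sequenced fragments was lower by about that factor. The level of a gene is given as CPM (counts scaled to a common library size, with a correction for composition), and 3 values in a row stand for replicates 1, 2 and 3, with the asGM1-negative libraries always given first. Of 20411 genes with enough counts, 1754 (8.59%) passed an adjusted p of 0.05 in the quasi-likelihood test of edgeR, adjusted by the Benjamini-Hochberg method, and such genes are referred to here as called. In asGM1-positive cells 565 genes (2.77% of those tested) were higher and 1189 (5.83%) were lower. Leaving out asGM1-negative replicate 2 or 3 reduced the number called to 768 or 1077, and leaving out asGM1-positive replicate 1, 2 or 3 reduced it to 1125, 1087 or 985. A log2 fold change beyond 1 in size was seen for 108 of the genes called higher and for 796 of those called lower. The lower and the higher groups of libraries did not overlap for 5862 genes (28.7%), and 1745 of the called genes were among them. All counts of genes below are read against these shares, and the median log2 fold change of all genes tested was -0.01. Whether the replicates are separate mice, tumours or sorts is not in the labels, and p-values measure the spread between these libraries, which may be technical.

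Genes of CD8 T cells were well expressed in every library, which does not show that all sorted cells were T cells. Cd8a, the alpha chain of the sorted co-receptor, was at 2131, 1569 and 1910.3 CPM in the asGM1-negative libraries and 2276, 2316 and 2562 CPM in the asGM1-positive ones, and the change was not called (log2 fold change 0.35 ± 0.13, SE, adjusted p = 0.123). Cd8b1, the beta chain that dendritic cells lack, was at 1492, 1278 and 1529 CPM and 1793, 2102 and 2392 CPM. Both gates thus held abundant RNA of both CD8 chains, and Cd8b1 was called higher in asGM1-positive cells (log2 fold change 0.55 ± 0.13, adjusted p = 0.0287). That call was lost without asGM1-negative replicate 2 or 3 or asGM1-positive replicate 2 or 3 (adjusted p 0.00181 to 0.111 over all alternatives). The other called identity gene of 15 was the receptor chain Cd3e, at 614, 949.9 and 992 CPM and 1172, 1412 and 1386 CPM (log2 fold change 0.63 ± 0.17, adjusted p = 0.0410). Leaving out any library other than asGM1-negative replicate 3 ended the call of Cd3e (adjusted p 0.00556 to 0.112 over all alternatives).

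Transcripts of several other cell types were lower in the asGM1-positive gate, among them those of plasmacytoid dendritic cells. Of 32 markers of these cells, 23 were called lower and none higher, with a median log2 fold change of -3.33. Siglech, the lectin that defines mouse plasmacytoid dendritic cells, was at 289.9, 262 and 253 CPM in the asGM1-negative libraries and 4.56, 2.33 and 1.60 CPM in the asGM1-positive ones. Ccr9, a gut-homing receptor of those cells, was at 109, 127 and 116 CPM and 2.35, 0.847 and 0.177 CPM. Ly6d followed the same pattern, at 182, 132 and 132 CPM and 2.57, 1.16 and 1.46 CPM. No asGM1-positive library came near the lowest asGM1-negative one for any of the 3, and their log2 fold changes were -6.57 ± 0.81 (adjusted p = 0.000841), -6.70 ± 0.73 (adjusted p = 0.000394) and -6.42 ± 0.47 (adjusted p = 3.17e-05). The transcription factor of this lineage Bcl11a ran at 12.8, 12.7 and 12.5 CPM against 0.218, 0.0314 and 0 CPM. Cd300c was at 16.8, 16.4 and 16.7 CPM against 0.218, 0 and 0 CPM, a mean in asGM1-positive cells at or under the floor of 3 fragments over a library (0.0802 CPM), so no fold is given. In a bulk library, fewer cells of a type and less RNA per cell cannot be told apart.

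Other haematopoietic markers moved in both directions. Conventional dendritic cell markers were called lower in 8 of 22 cases (median -0.68), among them Flt3, the receptor for Flt3L, at 25.3, 30.7 and 25.8 CPM and 1.03, 1.41 and 0.621 CPM (log2 fold change -4.74 ± 0.61, adjusted p = 0.00106), and Clec9a, the dead-cell receptor of cross-presenting dendritic cells (log2 fold change -2.96 ± 0.51, adjusted p = 0.00515). Without asGM1-negative replicate 2 or 3 or asGM1-positive replicate 1 that count was 5, and without asGM1-positive replicate 3 it was 4. B and plasma cell markers were called lower in 5 of 17 cases (median -1.74), with Cd79b, a chain of the B cell receptor, at 35.7, 22.997 and 26.4 CPM and 8.76, 8.14 and 12.5 CPM, and in 3 without asGM1-negative replicate 2 or asGM1-positive replicate 2 or 3. Of 29 macrophage and monocyte markers 3 were called lower and 1 higher, with a positive median of 0.62 and 24 positive values, and the count called lower was 1 without asGM1-positive replicate 1 or 2. Their summed level was 836 to 1168 CPM in asGM1-negative and 1248 to 1438 CPM in asGM1-positive libraries, higher in each of the latter. Of 16 NK cell markers, many of which activated CD8 T cells also express, 3 were called higher and 3 lower (median 0.38), and 1 higher without asGM1-negative replicate 2 or 3 or asGM1-positive replicate 3. Their sum was 3325 to 4629.6 CPM and 5758 to 7472 CPM. Most of that sum in every library was Nkg7 alone, at 4025, 2848 and 3602 CPM and 5344, 5471 and 6986 CPM. Of 12 genes of MHC class II presentation 4 were called lower (median -0.56), among them H2-Ob, a subunit of the peptide-loading regulator of B cells and dendritic cells, at 7.03, 6.79 and 5.29 CPM and 0.550, 0.502 and 1.44 CPM, and 2 were called lower when any library but asGM1-positive replicate 3 was left out. No neutrophil (0 of 12) or fibroblast and endothelial (0 of 24) marker was called, and of 17 tumour epithelium markers 1 was, Lgals4, which was lower and lost its call without asGM1-negative replicate 2 or 3 or asGM1-positive replicate 2 or 3. The summed level of the plasmacytoid list was 4249 to 5152 CPM in asGM1-negative and 2230.4 to 2942 CPM in asGM1-positive libraries, and that of the B and plasma cell list 963 to 1079 and 561 to 719 CPM. The sums include members that T cells also express, such as Bst2 in the plasmacytoid list. The part of these cells in the results that follow was not tested. All members of the lists of other cell types and of MHC class II presentation were also dropped from the finished calls. This left 1682 called genes, with no new fit. Any genes of these cells outside the lists stayed in, so that count does not measure their part.

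**Figure D1:**
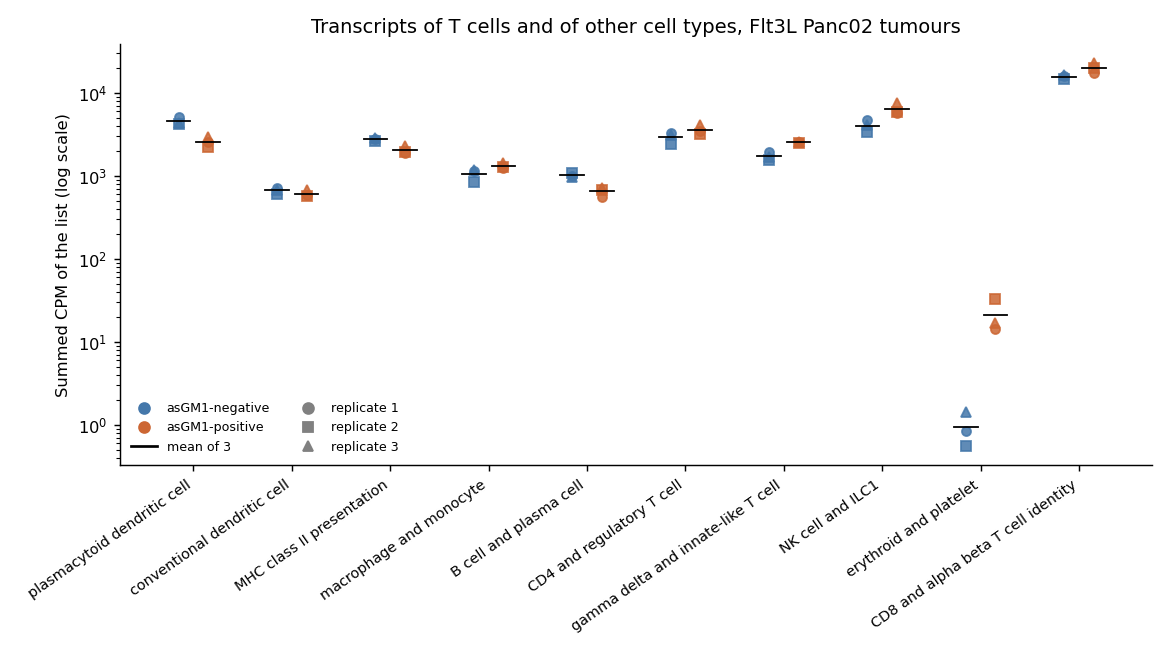
Summed CPM (log axis) of 9 lists of other cell types or of MHC class II presentation and of the T cell identity list in each of the 6 libraries. Points are libraries, with the shape giving the replicate, and the bar is the mean of 3. The plasmacytoid and B cell sums were lower in every asGM1-positive library. The macrophage and monocyte, NK cell, innate-like T cell, T cell identity and erythroid sums were higher in every one. The conventional dendritic cell and CD4 sums overlapped. Most of the NK cell sum was Nkg7, and most of the innate-like T cell sum was Cxcr6. Without Cxcr6 the innate-like members together were lower in every asGM1-positive library.

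Most markers of innate-like T cells that were called were lower in the asGM1-positive gate. Of 19 markers of gamma delta and innate-like T cells, 11 were called lower (median -2.14), and the 1 called higher was Cxcr6, which many tumour-resident CD8 T cells express. With Cxcr6 included, the summed level of the list was higher in every asGM1-positive library, at 1541 to 1936 CPM and 2501.5 to 2530.0 CPM. Most of that sum was Cxcr6, at 1157 to 1525 CPM and 2340.1 to 2372 CPM. The rest of the sum was lower in every asGM1-positive library. Il23r, a receptor that supports interleukin-17-producing lymphocytes, was at 3.48, 4.17 and 2.58 CPM in the asGM1-negative libraries and 0, 0.0941 and 0 CPM in the asGM1-positive ones, and Zbtb16, the factor that programs innate-like T cells, at 4.18, 3.68 and 1.53 CPM and 0, 0.0627 and 0 CPM. The asGM1-positive means of both genes were at or under the floor of 3 fragments, and folds against such levels are not given. Blk, a kinase of B cells and of interleukin-17-producing gamma delta T cells, was at 6.57, 11.3 and 6.79 CPM and 0.0623, 0.157 and 0.0554 CPM (adjusted p = 0.000149). Trgc1, a gamma chain constant segment, was at 52.05, 48.2 and 32.8 CPM and 10.99, 11.4 and 15.9 CPM, lower in each asGM1-positive library than in any asGM1-negative one (log2 fold change -1.80 ± 0.21, adjusted p = 0.000600). The delta chain constant segment Trdc was not called, at 10.7, 15.4 and 12.1 CPM and 2.11, 1.45 and 2.78 CPM (log2 fold change -2.59 ± 0.80, adjusted p = 0.0686, range 0.00131 to 0.169 over the alternatives).

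Markers of helper T cells were divided, with Cd4 and Foxp3 among those lower. Cd4, the co-receptor of helper T cells, was at 22.99, 32.2 and 29.1 CPM and 4.43, 4.98 and 4.91 CPM (log2 fold change -2.56 ± 0.18, adjusted p = 2.02e-05). Foxp3, the factor of regulatory T cells, was at 18.2, 35.04 and 26.4 CPM and 9.28, 11.1 and 9.64 CPM (log2 fold change -1.41 ± 0.29, adjusted p = 0.0137), a call lost without asGM1-negative replicate 2 or asGM1-positive replicate 1 or 3 (adjusted p 7.27e-05 to 0.0605 over all alternatives). Both were low beside Cd8a in every library, with no overlap between the gates. Of the 20 genes of the CD4 and regulatory T cell list 10 had a positive and 10 a negative log2 fold change (median -0.04). The summed level of the list overlapped, at 2441 to 3299.5 CPM in asGM1-negative and 3215 to 4039.9 CPM in asGM1-positive libraries. In that list 5 were called lower and 1 higher, the actin-capping protein Capg, which lost its call without asGM1-negative replicate 2 or 3 or asGM1-positive replicate 1 or 3.

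Genes for leaving tissue and for the naive and stem-like states of T cells were lower in asGM1-positive cells. Of 17 genes of tissue exit and lymph node homing 10 were called lower and none higher, with a median log2 fold change of -1.05, and of 32 genes of the naive, stem-like and quiescent states 20 were called lower and none higher (median -0.90). Leaving out any single library moved neither count by more than 1.5 times. S1pr1, the receptor that guides T cells out of tissue along a lipid gradient, was at 69.8, 114 and 92.3 CPM in the asGM1-negative libraries and 17.9, 18.1 and 12.05 CPM in the asGM1-positive ones (log2 fold change -2.52 ± 0.22, adjusted p = 0.000103). Klf2, the factor that turns it on, was at 43.7, 106 and 69.7 CPM and 12.6, 21.1 and 17.4 CPM (log2 fold change -2.10 ± 0.28, adjusted p = 0.00126). For both genes the highest asGM1-positive library stayed below the lowest asGM1-negative one, which was replicate 1.

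The stem-like factor Tcf7 and the survival cytokine receptor Il7r fell alongside. Tcf7 was at 165, 279.8 and 231 CPM and 59.5, 97.4 and 68.8 CPM (log2 fold change -1.58 ± 0.23, adjusted p = 0.00231), and Il7r at 72.8, 85.7 and 86.2 CPM and 25.5, 32.4 and 30.2 CPM (log2 fold change -1.47 ± 0.17, adjusted p = 0.000669). Itgb7, the integrin chain that pairs with Itga4 for gut homing and with Itgae for binding epithelium, was at 652, 912 and 707 CPM and 275, 249 and 244 CPM (log2 fold change -1.57 ± 0.15, adjusted p = 0.000160). Its partner Itgae, known as CD103, was at 67.9, 122 and 111 CPM and 26.3, 27.6 and 25.9 CPM (log2 fold change -1.91 ± 0.34, adjusted p = 0.00634). The asGM1-positive values of Itgae lay within a narrow band while asGM1-negative replicate 1 was well below its 2 fellows. All 4 genes were called under every alternative tried.

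**Figure D2:**
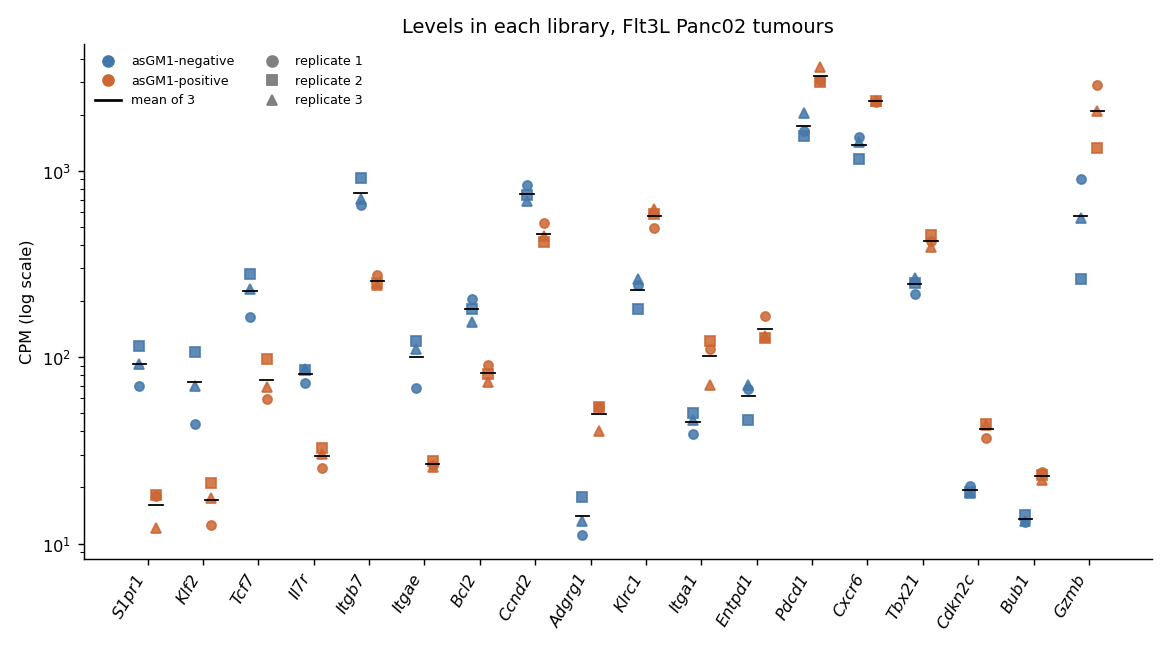
Level in CPM (log axis) of 18 genes in each of the 6 libraries, asGM1-negative in blue and asGM1-positive in orange, with the shape giving the replicate and the bar the mean of 3. The gates were separate for all 18 genes, from S1pr1 to Ccnd2 with the asGM1-positive cells lower and from Adgrg1 to Gzmb with them higher; Gzmb was the gene of these 18 whose change was not called.

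Residence genes were split. Of 22 genes of tissue residence 5 were called higher and 3 lower (median 0.23), and 3 were called higher without asGM1-negative replicate 2 or asGM1-positive replicate 1. Adgrg1, an adhesion receptor of cytotoxic lymphocytes, had the largest rise among the genes named by size, from 11.04, 17.7 and 13.3 CPM in the asGM1-negative libraries to 54.1, 54.2 and 39.96 CPM in the asGM1-positive ones (log2 fold change 1.82 ± 0.18, adjusted p = 0.000192). Itga1, the collagen-binding integrin chain known as CD49a, was at 38.5, 49.9 and 46.04 CPM and 110.3, 122 and 70.7 CPM (log2 fold change 1.17 ± 0.21, adjusted p = 0.00575). Cxcr6, a chemokine receptor of tissue-resident T cells, was at 1525, 1157 and 1429 CPM and 2340.1, 2357 and 2372 CPM (log2 fold change 0.78 ± 0.12, adjusted p = 0.00354). The 3 asGM1-positive values of Cxcr6 were nearly equal and all lay above the asGM1-negative ones. Cd69, which blocks S1pr1 at the surface and is often used with CD103 to mark resident cells, was called lower, at 195, 167 and 168 CPM and 102, 116 and 119 CPM (log2 fold change -0.65 ± 0.12, adjusted p = 0.00762).

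Among 20 chemokine receptors, 2 were called higher and 6 lower (median -0.07). Ccr6, typical of interleukin-17-producing and B cells, was at 37.02, 27.9 and 26.1 CPM in the asGM1-negative libraries and 2.54, 1.42 and 3.07 CPM in the asGM1-positive ones (log2 fold change -3.69 ± 0.44, adjusted p = 0.000706). The cells that its RNA came from were not tested. Cx3cr1, found on circulating effector T cells and macrophages, was at 68.2, 68.3 and 74.2 CPM and 99.4, 104 and 74.4 CPM and was not called (log2 fold change 0.40 ± 0.14, adjusted p = 0.0974, range 0.0297 to 0.243).

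Inhibitory and exhaustion genes leaned upward. Of 28 checkpoint and exhaustion genes 5 were called higher and 2 lower (median 0.31), and 3 were called higher without asGM1-negative replicate 2 or asGM1-positive replicate 2. Pdcd1, encoding PD-1, was at 1640.2, 1543 and 2044 CPM and 3082, 2977 and 3585 CPM (log2 fold change 0.88 ± 0.18, adjusted p = 0.0129), and it missed the threshold (0.0620) when asGM1-negative replicate 2 was left out (range 9.51e-05 to 0.0620). Entpd1, the ATP-hydrolysing CD39 of tumour-reactive T cells, was at 67.6, 46.1 and 70.7 CPM and 166, 127 and 131 CPM (log2 fold change 1.20 ± 0.21, adjusted p = 0.00536). Cd244a, the 2B4 receptor of NK and exhausted CD8 T cells, was at 97.9, 76.3 and 72.4 CPM and 168, 169 and 147 CPM (log2 fold change 0.97 ± 0.12, adjusted p = 0.000807). In each case the lowest asGM1-positive library exceeded the highest asGM1-negative one. Going the other way were Btla, an inhibitory receptor of resting lymphocytes, at 27.2, 32.2 and 33.9 CPM and 12.05, 15.2 and 12.6 CPM (log2 fold change -1.23 ± 0.18, adjusted p = 0.00263), and the transcription factor Maf. Havcr2, Lag3 and the exhaustion factor Tox had higher means in asGM1-positive cells, with log2 fold changes of 1.005 ± 0.31, 0.77 ± 0.23 and 0.62 ± 0.28, and none was called (adjusted p = 0.0717, 0.0634 and 0.191; ranges 0.00860 to 0.222, 0.0138 to 0.145 and 0.0335 to 0.441).

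Killing genes leaned the same way with wide spread. Of 26 genes of cytotoxic granules and killing 5 were called higher and none lower (median 0.36); only 1 was called higher without asGM1-negative replicate 2, asGM1-positive replicate 2 or asGM1-positive replicate 3, and 2 without asGM1-negative replicate 3. Nkg7, a granule protein of cytotoxic cells, was at 4025, 2848 and 3602 CPM and 5344, 5471 and 6986 CPM (log2 fold change 0.76 ± 0.19, adjusted p = 0.0283), a call lost without asGM1-negative replicate 2 or 3 or asGM1-positive replicate 2 or 3 (adjusted p 0.00131 to 0.109 over all alternatives). Ctsd, a lysosomal protease, was at 2468, 2286 and 2559 CPM and 4014, 4400 and 4557 CPM (log2 fold change 0.83 ± 0.11, adjusted p = 0.00126), and this gene was called under every alternative tried. Perforin, Prf1, which opens the target membrane, was at 636, 292 and 496 CPM and 1432, 674 and 774 CPM, with asGM1-positive replicates 2 and 3 barely above asGM1-negative replicate 1 (log2 fold change 1.02 ± 0.39, adjusted p = 0.127, range 0.00303 to 0.362). Granzyme B, Gzmb, varied several-fold within each gate and was not called (log2 fold change 1.87 ± 0.57, adjusted p = 0.0649, range 0.000715 to 0.192). Granzymes are a family of close paralogs, so their counting is uncertain.

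NK receptors moved in both directions. Of 32 genes of this list 6 were called higher and 7 lower (median 0.22), with 3 called higher without asGM1-negative replicate 2. Klrc1, the inhibitory NKG2A receptor, was at 244, 181 and 262 CPM and 494, 588 and 625 CPM (log2 fold change 1.31 ± 0.24, adjusted p = 0.00673), and every asGM1-positive library was well above the asGM1-negative ones. Klrk1, the activating NKG2D receptor, was at 414, 337 and 466 CPM and 616, 759 and 861 CPM (log2 fold change 0.88 ± 0.18, adjusted p = 0.0128), with an adjusted p of 0.0591 without asGM1-negative replicate 2 (range 9.50e-05 to 0.0591). The Ly49 receptors Klra6 and Klra9 fell, with Klra6 at 28.98, 26.8 and 20.2 CPM and 8.98, 9.80 and 7.66 CPM (log2 fold change -1.52 ± 0.17, adjusted p = 0.000579) and Klra9 at 15.5, 13.2 and 12.8 CPM and 4.48, 4.63 and 4.08 CPM (log2 fold change -1.65 ± 0.27, adjusted p = 0.00368). Ly49 genes are near-identical copies, so which of them the reads came from is uncertain. Tyrobp, the DAP12 adaptor of NK and myeloid receptors, was at 203, 148 and 174 CPM and 29.1, 29.2 and 43.4 CPM (log2 fold change -2.37 ± 0.28, adjusted p = 0.000695). The defining NK receptor Klrb1c was at 9.66, 10.9 and 7.87 CPM and 10.7, 11.8 and 11.7 CPM, overlapping between the gates (adjusted p = 0.425, range 0.204 to 0.730), and the NK list's 16 markers split into 3 called higher, 3 lower and 10 not called. Its count called higher was 1 without asGM1-negative replicate 2 or 3 or asGM1-positive replicate 3.

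Regulators of effector differentiation were called in both directions, 3 higher and 2 lower of 22 (median 0.19), with 1 higher without asGM1-positive replicate 2. Tbx21, the T-bet factor of cytotoxic and interferon-gamma-producing T cells, rose from 219, 251 and 267 CPM to 422, 452 and 391 CPM (log2 fold change 0.78 ± 0.13, adjusted p = 0.00395). Rora, a factor of innate and interleukin-17-producing lymphocytes, fell from 51.2, 49.7 and 44.3 CPM to 21.4, 19.4 and 18.4 CPM (log2 fold change -1.30 ± 0.17, adjusted p = 0.00142). Of 30 immediate early and NFAT target genes, a list that reports recent receptor stimulation, 1 was called lower and none higher (median 0.04). That gene was Zfp36l1, an RNA-binding protein that destabilises cytokine messages (log2 fold change -0.61 ± 0.16, adjusted p = 0.0364), and its call was lost without asGM1-negative replicate 2 or 3 or asGM1-positive replicate 1 or 3 (range 0.00700 to 0.142).

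Receptor signalling genes were called in both directions. Of 31 genes of T cell receptor signalling 4 were called higher and 2 lower (median 0.18). Leaving out asGM1-negative replicate 2 left 0 called higher, asGM1-positive replicate 1 or 2 left 1 and asGM1-positive replicate 3 left 2. Ubash3a, a phosphatase that damps the receptor, was at 224, 249 and 262 CPM and 325, 335 and 310.3 CPM (log2 fold change 0.40 ± 0.09, adjusted p = 0.0210, range 0.000208 to 0.120). Rasgrp1, which couples the receptor to Ras, was at 69.1, 102 and 85.95 CPM and 51.2, 57.4 and 40.00 CPM (log2 fold change -0.79 ± 0.17, adjusted p = 0.0185), a call lost without asGM1-negative replicate 2 or 3 or asGM1-positive replicate 3 (range 0.000617 to 0.0778). Of 21 costimulatory receptors 3 were called lower and none higher (median -0.11), among them Tnfrsf25, the DR3 receptor, at 16.99, 14.6 and 8.96 CPM and 0.778, 0.606 and 1.53 CPM (log2 fold change -3.80 ± 0.43, adjusted p = 0.000593). Its asGM1-positive values all lay far below the asGM1-negative ones.

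Cytokine genes that passed were all of lower level in asGM1-positive cells, 6 of 25 (median -0.30). The 3 with the smallest p were ligands of the tumour necrosis factor family. Tnfsf8, the CD30 ligand, was at 51.4, 50.7 and 48.7 CPM and 18.8, 17.8 and 15.2 CPM (log2 fold change -1.54 ± 0.20, adjusted p = 0.00104). Tnfsf11, the RANK ligand that supports dendritic cells and osteoclasts, was at 35.5, 33.1 and 38.3 CPM and 18.5, 21.6 and 17.6 CPM (log2 fold change -0.89 ± 0.12, adjusted p = 0.00144). Tnfsf4, the OX40 ligand, was at a far lower level in both gates (log2 fold change -1.69 ± 0.21, adjusted p = 0.000980). Interferon gamma, Ifng, was at 261, 139 and 189 CPM and 497, 249.6 and 257 CPM, overlapping between the gates and not called (adjusted p = 0.216, range 0.0153 to 0.582). Of 21 chemokine ligands 1 was called higher (median 0.58), Ccl5, which attracts effector T cells and was at 401, 313 and 383 CPM and 495, 559 and 764 CPM (log2 fold change 0.73 ± 0.18, adjusted p = 0.0323). The call of Ccl5 was lost without asGM1-negative replicate 2 or 3 or asGM1-positive replicate 2 or 3 (range 0.00257 to 0.124). Of 31 cytokine receptors 8 were called lower and 1 higher (median -0.15), with 5 lower without asGM1-negative replicate 2 or asGM1-positive replicate 1 or 3. The 1 higher was Il2rb, the shared interleukin-2 and interleukin-15 receptor chain, at 1293, 2009 and 2014 CPM and 3135, 3405 and 2788 CPM (log2 fold change 0.81 ± 0.19, adjusted p = 0.0210), a call lost without asGM1-positive replicate 1 or 2 (range 0.000574 to 0.0677). Csf2rb, the chain shared by the myeloid growth factor receptors, was at 35.8, 36.7 and 37.6 CPM and 4.32, 4.63 and 3.17 CPM (log2 fold change -3.18 ± 0.38, adjusted p = 0.000695). Which cells expressed Csf2rb was not tested.

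**Figure D3:**
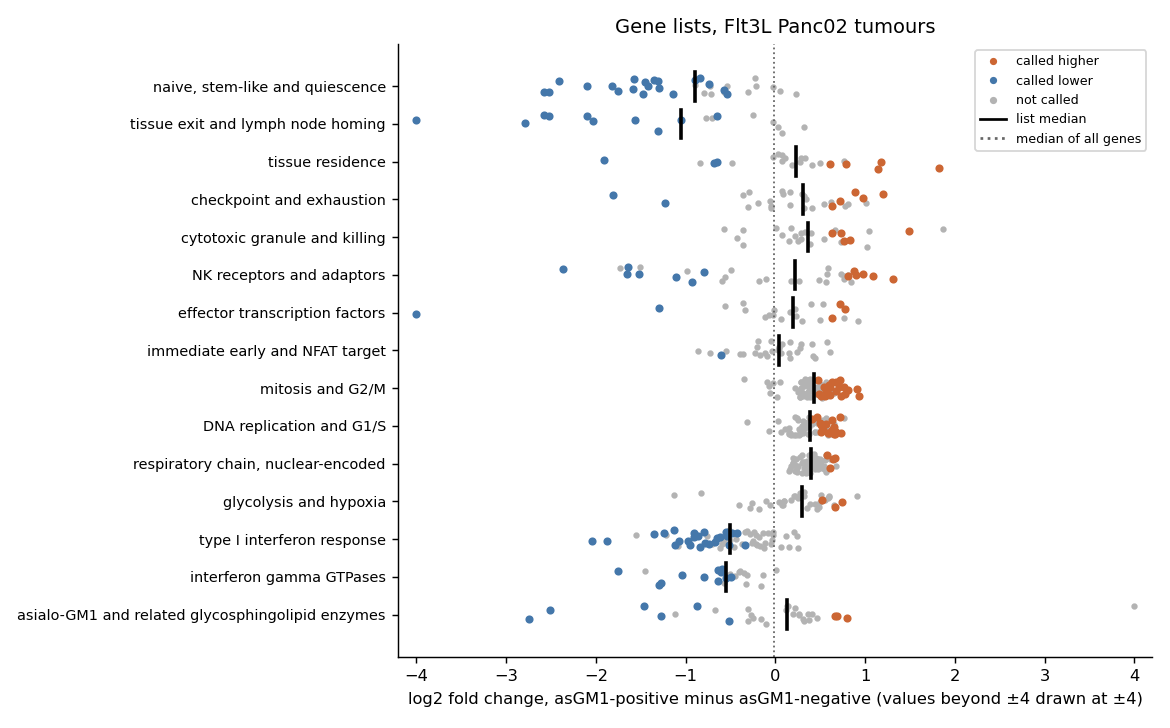
Log2 fold change (asGM1-positive minus asGM1-negative) of each tested gene of 15 lists, called genes in orange where higher and blue where lower, with the list median as a bar and the median of all genes as a dotted line. The exit and naive lists have the lowest medians, -1.05 and -0.90. The mitosis, replication and respiratory chain lists form narrow clouds to the right of the dotted line with medians of 0.43, 0.39 and 0.40. The farthest values are drawn at the limit named on the axis.

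Most cell cycle genes had small positive log2 fold changes, and fewer passed the test. Of 79 genes of mitosis and the G2 and M phases, 24 were called higher and none lower, and 74 had a positive log2 fold change (median 0.43). Of 74 genes of DNA replication and the G1/S step, 18 were called higher and none lower, and 72 were positive (median 0.39). The counts depended on single libraries. Leaving out asGM1-negative replicate 1, 2 or 3 gave 42, 13 or 11 mitosis genes and 34, 8 or 7 replication genes, and leaving out asGM1-positive replicate 1 gave 13 and 7. Bub1, the spindle checkpoint kinase, was at 13.02, 14.2 and 13.2 CPM and 24.1, 23.4 and 21.8 CPM (log2 fold change 0.78 ± 0.11, adjusted p = 0.00164). Plk1, the kinase that drives entry into mitosis, was at 68.9, 58.5 and 55.4 CPM and 108, 94.2 and 97.9 CPM (log2 fold change 0.71 ± 0.11, adjusted p = 0.00310). Mcm5, a subunit of the replicative helicase, was at 441, 419 and 393 CPM and 743, 588 and 668 CPM (log2 fold change 0.67 ± 0.12, adjusted p = 0.00515). The gates did not overlap for any of the 3, although each log2 fold change was below 1. Mki67, the usual proliferation marker, did not differ beyond its spread, at 127, 119 and 96.1 CPM and 139, 109 and 99.2 CPM (log2 fold change 0.02 ± 0.14, adjusted p = 0.952), and its sign turned under 4 alternatives.

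Promoters of mitotic genes are known for a CCAAT box and a cell cycle element with the core TTTGAA. In the promoters of the RefSeq table of build GRCm38.p6 (250 bases before to 50 after each start), TTTGAA on either strand was in 11 of the 20 matched mitosis genes called higher (55.0%), against 18.1% of all 27025 promoters. CCAAT was in 14 of the 20 (70.0%), against 37.9% of all. Among the 17 matched replication genes called higher, 1 held TTTGAA (5.88%) and 10 held CCAAT (58.8%). The Plk1 promoter is shown because it holds both within a short stretch around the start, in capitals. It lies at chr7:122159185-122159484 on the plus strand of GRCm38.p6, which is not the build of the counts. A match describes the letters and no binding. Uncalled members of these lists were not counted, so the shares describe listed genes and nothing particular to those that rose.
Plk1: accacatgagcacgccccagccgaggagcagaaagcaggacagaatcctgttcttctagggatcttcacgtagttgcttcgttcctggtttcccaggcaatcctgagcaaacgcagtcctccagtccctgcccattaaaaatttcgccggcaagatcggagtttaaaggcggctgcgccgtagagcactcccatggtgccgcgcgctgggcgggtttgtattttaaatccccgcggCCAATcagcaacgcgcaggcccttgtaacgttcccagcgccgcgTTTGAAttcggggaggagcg

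Of 16 cell cycle inhibitors and D cyclins 2 were called higher and 2 lower (median 0.03, and -0.03 with upper quartile factors). Cdkn2c, the p18 inhibitor of the cyclin D kinases, rose from 20.3, 18.9 and 18.8 CPM to 36.7, 43.8 and 43.3 CPM (log2 fold change 1.10 ± 0.14, adjusted p = 0.000879). Ccnd2, the main D cyclin of T cells, fell from 839, 737 and 685 CPM to 524, 413 and 445 CPM (log2 fold change -0.71 ± 0.11, adjusted p = 0.00310), and Ccnd1 fell from a far lower level (log2 fold change -1.82 ± 0.37, adjusted p = 0.0124). Bcl2, the survival factor maintained by interleukin-7, was at 205, 182 and 154 CPM and 90.7, 81.4 and 73.7 CPM (log2 fold change -1.14 ± 0.12, adjusted p = 0.000394). All 4 genes kept their call in every alternative tried. Of 26 genes of the BCL-2 family and cell death 6 were called lower and 2 higher (median -0.06), and 3 were called lower without asGM1-negative replicate 2 or 3 or asGM1-positive replicate 2 or 3.

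Many genes of the interferon response were lower in asGM1-positive cells. Of 64 type I interferon response genes 25 were called lower and none higher (median -0.51), and 58 had a negative log2 fold change. Of 23 interferon gamma GTPases and related genes 11 were called lower and none higher (median -0.55). Leaving out asGM1-negative replicate 2 or 3 gave 15 or 11 type I genes, and leaving out asGM1-positive replicate 1, 2 or 3 gave 16, 11 or 14. The GTPase list had 7 calls when asGM1-negative replicate 2 or asGM1-positive replicate 2 was left out, and 6 when asGM1-positive replicate 3 was. Irf7, the amplifier of interferon production, was at 246, 216 and 220 CPM and 119, 101 and 143 CPM (log2 fold change -0.91 ± 0.12, adjusted p = 0.00135). It is also highly expressed by plasmacytoid dendritic cells, and which cells its RNA came from was not tested. Slfn5, an interferon-induced member of the Schlafen family, was at 11.01, 13.1 and 12.5 CPM and 4.42, 4.44 and 5.50 CPM (log2 fold change -1.35 ± 0.23, adjusted p = 0.00515). Ifi213, of the interferon-induced DNA-sensing family, was at 53.5, 49.03 and 52.99 CPM and 28.7, 29.7 and 34.4 CPM (log2 fold change -0.74 ± 0.12, adjusted p = 0.00343). Tgtp1, a T-cell-specific GTPase induced by interferon gamma, was at 392, 276 and 290.4 CPM and 139.8, 112 and 138 CPM (log2 fold change -1.30 ± 0.18, adjusted p = 0.00149), and its near-copy Tgtp2 moved with it, so reads of the pair may have been exchanged. The asGM1-positive values lay below every asGM1-negative value for these genes. Ifitm2, an interferon-induced membrane protein that was in neither list, went the other way, from 53.2, 44.8 and 65.2 CPM to 112, 159 and 222 CPM (log2 fold change 1.59 ± 0.38, adjusted p = 0.0257), and lost its call when any library but asGM1-positive replicate 1 was left out (range 0.000218 to 0.102). Genes of MHC class I presentation did not follow, with 1 of 23 called lower (median 0.04). That gene was H2-Q6, a nonclassical class I molecule with close copies, and it lost its call without asGM1-negative replicate 2 or any 1 of the asGM1-positive replicates (log2 fold change -0.33 ± 0.08, adjusted p = 0.0313, range 0.000577 to 0.150).

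The interferon-stimulated response element was searched as TTTC, any 2 bases and TTTC. It was found on either strand in 11 of the 20 matched type I response genes called lower (55.0%) and in 4 of 4 matched GTPase genes called lower, against 3.49% of all 27025 promoters of the RefSeq table. The GTPase list had 11 called genes, of which only these 4 had a promoter in the table. Both lists were written as interferon genes, and their uncalled members were not counted. The shares therefore describe listed genes and nothing particular to those that fell. The promoters of Slfn5 (chr11:82951852-82952151, plus strand), Ifi213 (chr1:173599223-173599522, minus strand) and Tgtp1 (chr11:48992197-48992496, minus strand), all of GRCm38.p6, are shown because their genes fell and each holds 1 match, in capitals. In all 3 the match lies on the strand opposite to the printed one.
Slfn5: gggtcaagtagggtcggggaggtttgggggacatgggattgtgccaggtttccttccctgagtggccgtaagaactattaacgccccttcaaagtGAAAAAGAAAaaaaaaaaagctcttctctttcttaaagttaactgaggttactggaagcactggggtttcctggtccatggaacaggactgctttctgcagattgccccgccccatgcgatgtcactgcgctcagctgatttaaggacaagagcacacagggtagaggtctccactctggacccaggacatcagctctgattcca
Ifi213: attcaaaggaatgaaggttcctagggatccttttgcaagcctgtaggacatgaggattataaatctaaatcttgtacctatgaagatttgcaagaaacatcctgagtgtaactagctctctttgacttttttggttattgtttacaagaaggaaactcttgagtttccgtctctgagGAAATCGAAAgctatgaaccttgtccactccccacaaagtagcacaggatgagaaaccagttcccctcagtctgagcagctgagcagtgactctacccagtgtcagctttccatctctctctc
Tgtp1: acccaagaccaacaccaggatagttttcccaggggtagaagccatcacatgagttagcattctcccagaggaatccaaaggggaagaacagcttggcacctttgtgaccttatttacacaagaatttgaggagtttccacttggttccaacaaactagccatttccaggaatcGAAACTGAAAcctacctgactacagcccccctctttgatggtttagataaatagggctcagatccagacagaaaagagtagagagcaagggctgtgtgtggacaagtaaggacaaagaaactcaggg

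Genes of energy metabolism had positive medians, and few of them passed the test. All 63 nuclear-encoded respiratory chain genes had a positive log2 fold change (median 0.40) and 4 were called higher, beside 2.77% of all genes. Leaving out asGM1-negative replicate 1, 2 or 3 gave 12, 1 or 2 calls, and leaving out asGM1-positive replicate 2 or 3 gave 1. Of 36 glycolysis and hypoxia genes 3 were called higher (median 0.30), and none remained without asGM1-negative replicate 2 or 3 or asGM1-positive replicate 1, with 1 left without asGM1-positive replicate 3. Pkm, the last enzyme of glycolysis, was at 2952, 2542 and 3156 CPM and 4687, 3571 and 4149 CPM (log2 fold change 0.52 ± 0.15, adjusted p = 0.0481, range 0.00674 to 0.169). Genes of heat shock (0 of 23) gave no call. Of 34 lipid synthesis genes 2 were called lower, among them the fatty acid desaturase Fads2, at 23.1, 27.8 and 24.9 CPM and 7.14, 5.52 and 5.14 CPM (log2 fold change -2.09 ± 0.36, adjusted p = 0.00515).

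The enzymes of the last steps to asialo-GM1 were not called, and 1 that makes its precursor was higher. B4galnt1, which adds the N-acetylgalactosamine, was abundant in both gates, at 883, 1180.2 and 1156 CPM and 1360.4, 1530.3 and 1390.2 CPM (log2 fold change 0.41 ± 0.12, adjusted p = 0.0626, range 0.0154 to 0.174). B3galt4, which adds the terminal galactose, was at 15.7, 15.7 and 17.5 CPM and 17.9, 19.1 and 21.5 CPM (log2 fold change 0.26 ± 0.16, adjusted p = 0.334, range 0.184 to 0.606). For both enzymes every asGM1-positive library lay above the asGM1-negative ones, by small amounts. Of the 31 listed enzymes of asialo-GM1 and related glycosphingolipids 3 were called higher and 6 lower (median 0.13), and 1 was called higher without asGM1-negative replicate 2 or asGM1-positive replicate 1 or 2. B4galt5, which makes the precursor lactosylceramide, rose from 73.6, 106 and 125 CPM to 165, 166 and 162 CPM (log2 fold change 0.69 ± 0.17, adjusted p = 0.0281), a call lost without asGM1-negative replicate 2 or any 1 of the asGM1-positive replicates (range 0.00191 to 0.0876). Listed sialyltransferases were called in both directions. St6galnac6 was called higher, at 6.83, 14.0 and 14.7 CPM and 20.3, 20.6 and 20.9 CPM (log2 fold change 0.80 ± 0.22, adjusted p = 0.0475). That call was lost without asGM1-negative replicate 2 or any 1 of the asGM1-positive replicates (range 0.00724 to 0.147). Those lower included enzymes of competing branches. St8sia1, the GD3 synthase that adds a further sialic acid, was at 9.19, 10.1 and 7.97 CPM and 1.42, 2.07 and 1.29 CPM (log2 fold change -2.51 ± 0.26, adjusted p = 0.000348). Sgms1, which diverts ceramide to sphingomyelin, was at 34.5, 45.2 and 38.9 CPM and 15.4, 18.7 and 15.1 CPM (log2 fold change -1.27 ± 0.22, adjusted p = 0.00536). Smpd1, the acid sphingomyelinase that releases ceramide again, went up, at 86.8, 84.7 and 86.6 CPM and 158, 127 and 125 CPM (log2 fold change 0.67 ± 0.12, adjusted p = 0.00611).

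Enzymes of sialic acid on proteins were divided, 6 higher and 6 lower of 33 (median -0.09), with 1 higher without asGM1-negative replicate 2 and 2 higher without asGM1-positive replicate 2 or 3. Cmah, which makes the hydroxylated form of sialic acid, fell from 28.2, 40.2 and 30.2 CPM to 11.1, 13.9 and 11.1 CPM (log2 fold change -1.45 ± 0.19, adjusted p = 0.00114). St6gal1, which caps N-glycans with alpha-2,6 sialic acid, fell from 34.8, 56.4 and 60.4 CPM to 21.8, 21.9 and 22.4 CPM (log2 fold change -1.20 ± 0.18, adjusted p = 0.00239). Fut7, which completes the selectin ligand sialyl Lewis X, rose from 37.7, 35.5 and 37.04 CPM to 59.01, 63.5 and 71.2 CPM (log2 fold change 0.81 ± 0.14, adjusted p = 0.00624). All 3 were called in every alternative tried, and their gates did not overlap.

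Haemoglobin transcripts were higher in the asGM1-positive gate. Hba-a1 was at 0.0770, 0 and 0.283 CPM in the asGM1-negative libraries and 4.85, 11.6 and 6.08 CPM in the asGM1-positive ones (log2 fold change 5.95 ± 0.96, adjusted p = 0.00365), and Hbb-bs at 0, 0 and 0.0567 CPM and 3.87, 6.87 and 3.92 CPM. The asGM1-negative levels of Hbb-bs and Hbb-bt were at or under the floor, so no fold is given. The 4 globin genes were the 4 called higher of 8 erythroid and platelet markers. Globin genes are close paralogs. Cma1, a mast cell protease also reported in NK cells, was at 0.164, 0 and 0 CPM and 4.12, 4.98 and 3.13 CPM. The source of these transcripts was not tested.

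The gate effect was then tested for a difference between Flt3L Panc02 and parental Panc02 tumours. The interaction was called for 75 genes (0.367%), of which 68 were negative and 7 positive, and all 75 were also called between the gates of Flt3L Panc02 tumours. Leaving out asGM1-negative replicate 1, 2 or 3 gave 1, 4 or 39 genes, and leaving out asGM1-positive replicate 1, 2 or 3 gave 41, 6 or 4. Among the genes above, Bcl2 fell between the gates with Flt3L (log2 fold change -1.14 ± 0.12) and had a log2 fold change of 0.03 without it, a difference of -1.17 ± 0.17 (SE, adjusted p = 0.0238). Cdkn2c rose with Flt3L and had a log2 fold change of -0.05 without it, a difference of 1.14 ± 0.19 (adjusted p = 0.0324). Tyrobp differed by -2.27 ± 0.38 (adjusted p = 0.0334), and in Panc02 tumours was at 59.4, 54.3 and 46.9 CPM and 72.9, 45.7 and 30.8 CPM. The macrophage and monocyte sum of Panc02 tumours was 1658 to 2222 CPM in the asGM1-negative libraries. In asGM1-positive replicates 1, 2 and 3 that sum was 5213, 3268 and 1708 CPM. The part of other cell types in these differences was not tested. S1pr1, Tcf7 and Itgae had log2 fold changes of -2.72, -2.05 and -2.12 in Panc02 tumours, and for none of them was the interaction called (adjusted p = 0.794, 0.525 and 0.869). Of the 1754 genes called between the gates with Flt3L, 1226 had the same sign without it.

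**Figure D4:**
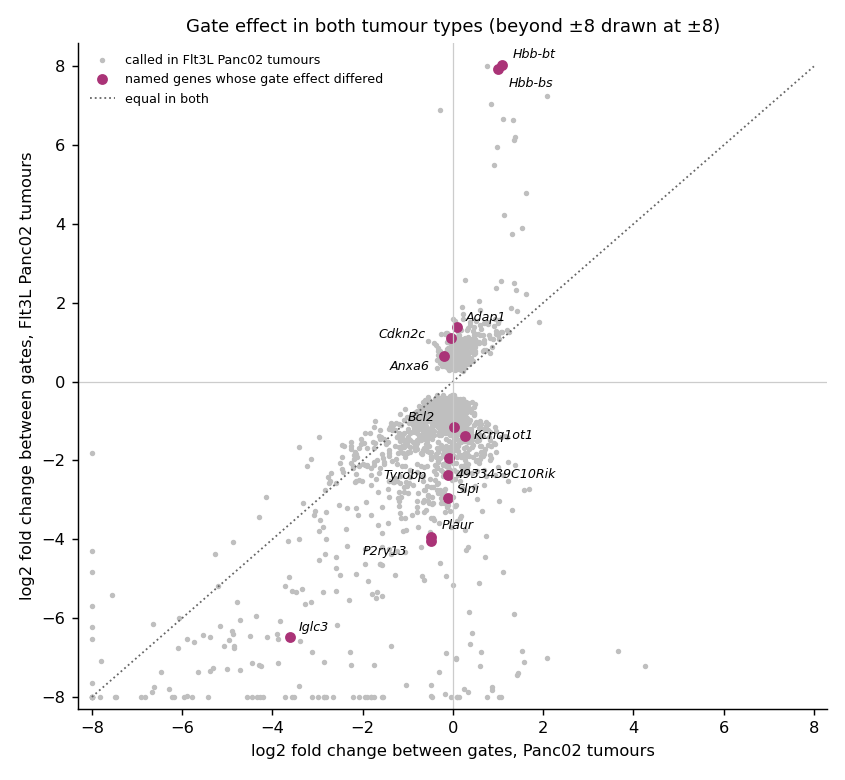
Log2 fold change between the gates in Panc02 tumours (horizontal) and in Flt3L Panc02 tumours (vertical) for the genes called in the latter. Named genes whose gate effect was called as different between tumour types are in purple, apart from Cd209d, which had a group at 0. Bcl2, Cdkn2c and Tyrobp lie near 0 on the horizontal axis and away from 0 on the vertical axis.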

How the data were processed

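RNA-seq of sorted CD8+ cells was available as 1 table of 56980 genes and 12 libraries, 3 in each of 4 groups read from the titles. TRIzol, Illumina's TruSeq mRNA kit and the SMARTer kit for ultra low input are listed, per the labels' protocols. Strand is not stated, and reads of overlapping or antisense genes cannot be separated. The tools HISAT2 and StringTie and the build mm39 stand in the list per the submitters' processing notes, without versions or order, and, like them, the annotation is not given in the sources used here. Estimated counts (expected counts) were what the authors deposited, already as whole numbers, and in them 1 fragment is worth about 2.71 counts (2.67 to 2.75 in the estimate). No column of another series was present (0 columns), no 2 libraries were identical (0 pairs) and 1542 genes had no symbol, of which 11 were named from the reference; 52073 identifiers matched it.

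A model with 4 group means over 12 libraries was fitted with edgeR 4.0.16 in R 4.3.3 (quasi-likelihood test, TMM factors, edgeR's default filter on low counts, 20411 genes), with Benjamini-Hochberg adjustment over all genes tested. The replicate number was no term of the model. Values after ± are standard errors (SE), the absolute unshrunken log2 fold change over the root of F. A gene passed at an adjusted p under 0.05. The interaction is the gate effect in Flt3L Panc02 minus that in Panc02. A level under 3 fragments (8.13 counts, 0.0802 CPM) was taken as the floor. The procedure was also run on simulated counts, drawn independently for each library without shared replicate effects or other cell types. The outcome of that run is not reported here.

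The comparison and the 40 gene lists were chosen with earlier results of these data known, and a gene can be in several lists. Named genes were those of the following rule: among called genes without overlap and with a mean of at least 5 CPM, up to 10 each way by size of change, up to 3 called genes per direction of each list by smallest p, 36 genes of a fixed panel, and up to 5 per direction of the interaction. Alternatives were the size factors and the test of DESeq2 1.42.0, upper quartile scaling, leaving genes unfiltered, keeping only genes with 5 CPM in 3 libraries, limma-voom (limma 3.58.1) with sample weights, the 6 libraries alone, a replicate block, counts per fragment and each of the 6 libraries left out. In the last, the group of 2 left and all others share 1 estimate of spread. Promoters came from a RefSeq table of GRCm38.p6 with 27025 symbols, using the first start listed for a gene. No table of the mm39 build was used here. Values of some genes that meet the naming rule are not reported here.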

Additional observations from a re-analysis of the deposited data

Results flagged for a closer look

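The named genes below stood out because the difference between the gates differed between Flt3L Panc02 and Panc02 tumours in edgeR's test of that difference (Benjamini-Hochberg adjustment). Each is given by the log2 fold change between the gates with Flt3L, that without it, and the difference ± SE. Outliers within groups could not be tested with 3 libraries a group. Leaving out 1 Flt3L Panc02 library reduced the 75 interaction calls to between 1 and 41. Whether each gene here kept its interaction call in those fits was not examined.

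The first group had a lower log2 fold change with Flt3L than without it. Plaur, the urokinase receptor, had -3.93 and -0.49, a difference of -3.44 ± 0.33 (adjusted p = 0.00553). Slpi, a secreted protease inhibitor, had -2.96 and -0.11, a difference of -2.85 ± 0.32 (adjusted p = 0.014). P2ry13, a receptor for ADP, had -4.04 and -0.48, a difference of -3.56 ± 0.48 (adjusted p = 0.0206). Tyrobp, the DAP12 adaptor, had -2.37 and -0.10, a difference of -2.27 ± 0.38 (adjusted p = 0.0334). Its Panc02 asGM1-positive libraries were uneven, at 72.9, 45.7 and 30.8 CPM, and the part of myeloid cells was not tested. Bcl2, the survival factor, had -1.14 and 0.03, a difference of -1.17 ± 0.17 (adjusted p = 0.0238). Iglc3, an immunoglobulin light chain segment with close copies, had -6.47 and -3.61, a difference of -2.86 ± 0.53 (adjusted p = 0.0474). The noncoding RNA Kcnq1ot1, antisense to Kcnq1, differed by -1.64 ± 0.22 and the clone-named gene 4933439C10Rik by -1.84 ± 0.25.

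The positive differences were fewer. Adap1 had 1.39 and 0.09, a difference of 1.30 ± 0.18 (adjusted p = 0.0213). Cdkn2c, the cyclin D kinase inhibitor, had 1.10 and -0.05, a difference of 1.14 ± 0.19 (adjusted p = 0.0324). Anxa6, a membrane-binding annexin, had 0.65 and -0.21, a difference of 0.86 ± 0.16 (adjusted p = 0.0459). The globin genes Hbb-bs and Hbb-bt had fitted differences of 6.92 ± 1.03 and 6.93 ± 1.20, which rest on asGM1-negative levels at or under the floor and are no measure of size. Cd209d, a lectin of the DC-SIGN family, had a fitted difference of 5.63, which depends on the prior count because 1 Panc02 group was at 0.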

How the results depend on the processing

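The replicate numbers were not taken as pairs, because the labels tie no number to a shared animal or day. Deviations of same-numbered libraries from their group means correlated across genes at 0.054, 0.104 and 0.0224 in Flt3L Panc02 tumours and at 0.284, 0.0952 and 0.166 in Panc02 tumours, against -0.113 to 0.0512 and -0.21 to 0.0575 for different numbers. Every library correlated best with its own number except asGM1-positive replicate 3 with Flt3L, whose best was asGM1-negative replicate 1 (0.0512), a hint from the data and not from the design. With the replicate block 2104 genes were called between the gates, 769 higher and 1335 lower, and the interaction was called for 204 genes, 39 positive and 165 negative. Between the gates, the DESeq2 test called 3215 genes (1309 higher, 1906 lower), limma-voom 2805 (1163 higher, 1642 lower), the fit of the 6 libraries alone 1094 (195 higher, 899 lower) and the fit without a filter 1221 (358 higher, 863 lower), beside 1754 (565 higher, 1189 lower). For the interaction, no filter gave 40 (4 positive, 36 negative), the stricter filter 137 (11 positive, 126 negative), the DESeq2 test 864 (235 positive, 629 negative) and limma-voom 786 (263 positive, 523 negative), beside 75 (7 positive, 68 negative). Leaving out 1 library gave 768 to 1942 gate calls, 176 to 810 higher and 592 to 1132 lower, and 1 to 41 interaction calls, 0 to 5 positive and 1 to 36 negative. The causes were not tested. DESeq2 size factors, upper quartile factors and counts per fragment kept all these counts within 1.5 times. Dropping the genes listed for other cell types from the finished calls left 1682, 555 higher and 1127 lower. That step involved no new fit and was no test of the part of those cells. Among list counts, the DESeq2 test, limma-voom and the 6 libraries alone gave 44, 50 and 9 mitosis genes higher (beside 24), 29, 40 and 4 replication genes (18), 21, 16 and 1 respiratory chain genes (4), 6, 5 and 0 glycolysis genes (3) and 6, 5 and 1 glycosphingolipid enzymes (3). The 6 libraries alone also gave 15 type I interferon (25) and 2 BCL-2 family genes lower (6), and higher 3 checkpoint (5), 3 killing (5), 1 effector factor (3), 1 T cell receptor signalling (4) and 2 N- and O-glycan genes (6). The replicate block gave 9 checkpoint, 9 killing, 5 effector factor, 10 glycolysis and 5 glycosphingolipid genes higher. Limma-voom gave 11 checkpoint genes higher, and the DESeq2 test 10 cytokines lower (6) and 6 NK cell markers higher (3). Without a filter 2 killing, 0 glycolysis and 2 respiratory chain genes were higher, and 3 BCL-2 family and 2 MHC class II genes lower (6 and 4). Upper quartile factors gave 1 glycolysis and 2 respiratory chain genes, and the stricter filter 1 glycolysis gene and 1 erythroid marker (4), which leaves fewer genes tested. Of the 145 named genes called, 99 were called in every alternative (at most 15 a gene), 16 lost the call in 1 to 3 and 30 in more, and 11 of 16 named genes not called passed in some. The sign of Mki67 turned with upper quartile factors (-0.0070), with the stricter filter (-0.047), without asGM1-negative replicate 3 (-0.09) and without asGM1-positive replicate 1 (-0.13), and leaving out 1 library gave -0.13 to 0.13; no other named gene changed sign. Levels near 0.0802 CPM rest on 3 or fewer fragments and limit folds of genes that were almost undetected in asGM1-positive cells.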

Other observations

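T cell receptor variable segments were not part of the lists. Among counts of beta chain variable (Trbv) segments, Trbv16 made up 19.3% and 12.6% in asGM1-negative replicates 1 and 2, and the leading segment of asGM1-negative replicate 3 was Trbv13-1 at 11.4%. In asGM1-positive replicates 1, 2 and 3 the leading segment was Trbv16, at 24%, 18.4% and 17.8%. From 5 to 8 Trbv segments held more than 5% in a library. Alpha chain variable (Trav) segments had a different leader in most libraries, among them Trav17 at 10.7% in asGM1-negative replicate 1, Trav12-2 at 12.1% in asGM1-positive replicate 1 and Trav8n-2 at 12.8% in asGM1-positive replicate 3. The Trbv totals were 62942 to 94506 estimated counts a library, no test was run, and Trav segments are near-identical copies whose reads can be exchanged.

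Some of the genes with the largest rise belong to no list. Mt1, a metal-binding metallothionein, was at 28.1, 17.4 and 25.4 CPM in the asGM1-negative libraries and 77.1, 51.3 and 85.8 CPM in the others (log2 fold change 1.60 ± 0.30, adjusted p = 0.00864, edgeR). Hk3, a hexokinase of blood cells, was at 3.10, 3.95 and 4.34 CPM and 10.9, 10.9 and 9.42 CPM (log2 fold change 1.45 ± 0.26, adjusted p = 0.00611). Osgin1, a gene induced by oxidative stress, was at 17.9, 24.4 and 18.7 CPM and 37.2, 74.9 and 63.4 CPM (log2 fold change 1.52 ± 0.29, adjusted p = 0.00847). Rapsn, a scaffold best known from the neuromuscular junction, was at 3.47, 4.29 and 4.79 CPM and 9.57, 11.9 and 15.2 CPM (log2 fold change 1.55 ± 0.23, adjusted p = 0.00235). For these 4 genes the gates did not overlap.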
